A study of Mus musculus with 36 samples.

Results

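In embryonic mouse forelimb, 594 regions of acetylated histone H3 lysine 27 (H3K27ac) had a peak in each of 4 libraries and in none of 14 others. They were chosen by the peak calls themselves. All stretches of the genome covered by peaks of at least 2 of 18 lists were formed, which gave 63594 regions. A region was kept if a peak of all 4 lists of 1 group, called run 4 here, overlapped it by at least 1 bp and no peak of the other 14 lists did. The 594 were 0.934% of all regions, a share that the rule itself fixes. They were 1.42% of the 41780 regions with a peak in all 4 run 4 lists.

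The study profiled H3K27ac by ChIP-seq in dissected forelimbs of FVB mouse embryos at embryonic day 11.5, to ask what a limb enhancer's loss does. Embryos were wild type (WT, 4 libraries) or carried a knockout of the limb enhancer mm1179 (4 libraries) or of hs72, hs1262, hs1467, hs1586 or hs1603 (2 libraries each). Every library came from forelimbs pooled over embryos, with no treatment. Run names stand for a tag shared by deposited lists, and the labels do not say whether a tag marks a sequencing run. Run 1 held replicates 1 and 2 of WT and mm1179, and run 2 held replicates 3 and 4 of both together with hs72. Run 3 held replicate 1 and run 4 replicate 2 of hs1262, hs1467, hs1586 and hs1603. The regions thus came from 1 library of each of 4 knockout lines, were not called in the other library of the same line, and no wild-type library belongs to run 4. Within these 4 lines the genotype was the same in run 3 and run 4, but run and replicate number cannot be told apart, and with 1 library per line in run 4 no test between lines was possible.

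H3K27ac is laid down by acetyltransferases on nucleosomes beside active enhancers and promoters. In the growing limb bud it marks the elements that drive patterning genes in mesenchyme and ectoderm. A peak caller reports a region where reads pile up beyond what it expects by chance, so a weakly marked site can be called in one library and missed in the next. In pooled tissue, fewer cells with the mark and less mark per cell cannot be told apart. A missing peak here means that no call was made, not that the mark was absent.

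The run 4 lists were the longest of the series. They held 54375 to 58753 peaks, against 26550 to 45267 in the other 14 lists, with no overlap between these ranges. Their peaks covered 140.9 to 166 Mb, against 62.6 to 115.3 Mb. Their median score, the authors' value for a peak, was 183.1 to 198.9, against 96.5 to 156.7. The lists hold no read counts, so whether run 4 was also the most deeply sequenced could not be checked. They name no genes either, so the tissue was not checked against marker genes. The same rule applied to run 1, to run 2 and to run 3 found 0 regions called in all lists of the run and in no other list. No region was called in all 14 other lists and missed in all of run 4, and the 1158 regions without a run 4 peak were called in at most 9 other lists.

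The 594 regions were weakly scored in the lists that called them. Each peak was ranked by its score within its own list, and a region took the percentile of its highest peak. The median percentile was 23.1 in hs1262 replicate 2, 24.3 in hs1467 replicate 2, 23.4 in hs1586 replicate 2 and 20.6 in hs1603 replicate 2. These 4 medians lay close together, and hs1603, the shortest list of the 4, had the lowest. In scores as the authors gave them, the medians were 77.2, 78.5, 80.6 and 70.4 in the same order, where the lowest score in any list was 40. No region scored under 50 in all 4 lists, though 251 did so in at least 1. A score of at least 100 in every list was reached by 37 regions and in no list by 220. Averaged over the 4 lists, the percentile had a median of 22.3, an interquartile range from 16.2 to 30.2 and extremes of 5.10 and 58.8. Only 7 regions had an average over 50, and 1 lay above the 50th percentile in every list. Weak scores are part of what the rule selects, so these values describe the regions and support nothing further.

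The 4 libraries ranked the same regions differently. The gap between a region's highest and lowest percentile had a median of 22.1 points, as large as the median percentile itself, and reached 89.6. Across the 594 regions, Spearman's rho between pairs of lists was 0.270 to 0.374, against 0.914 to 0.935 across all 41780 regions called in run 4. The regions fill a narrow band of low scores and share their lists, so these values are descriptions only. The highest of the 4 percentiles came from hs1467 replicate 2 at 179 regions, from hs1586 at 166, from hs1262 at 157 and from hs1603 at 92. The lowest came from hs1603 at 189 regions.

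**Figure D1:**
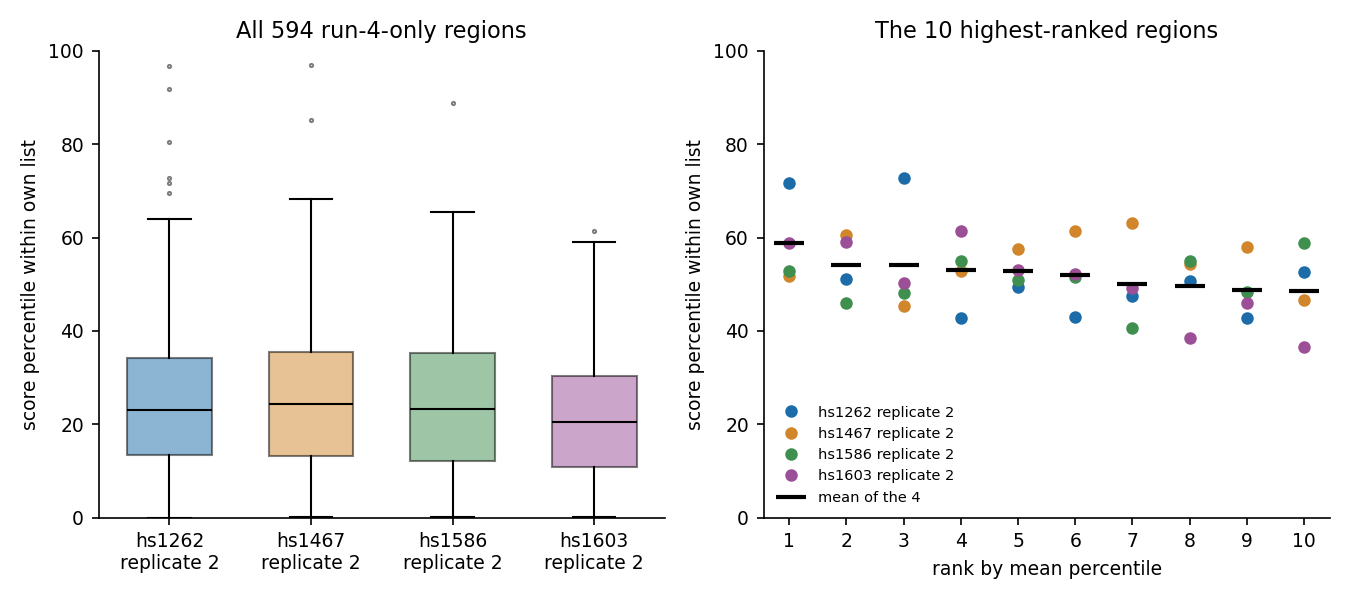
Left, score percentiles of the 594 regions in each run 4 list (box, quartiles and median; whiskers, up to 1.5 times the interquartile range; points, regions beyond). Right, percentiles of the 10 regions with the highest mean in each of the 4 lists, with the mean as a bar. Medians lie between 20.6 and 24.3, and the 10 means run from 48.7 to 58.8.

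The region with the highest average percentile lay on chromosome 6 from 108608026 to 108611065 (mm9), 3040 bp wide. Replicate 2 of hs1262 ranked it at percentile 71.7, hs1467 at 51.8, hs1586 at 52.8 and hs1603 at 58.9. Its scores, in that order of lines, were 523.2, 201.6, 223.3 and 261.9. It was the sole region above the 50th percentile in each list, and the nearest peak of any other library was 6.14 kb away.

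Second by average, at 54.2, was a region on chromosome 17 (43152902 to 43154673). It was followed at 54.1 by one on chromosome 5 (115684733 to 115686643). The percentiles of the chromosome 17 region were 51.2, 60.5, 46.0 and 59.0 in the same order of lines, so no single list carried it. Those of the chromosome 5 region were 72.8, 45.4, 48.1 and 50.2. There the hs1262 peak was 4696 bp wide, against 1828 to 1914 bp in the other 3 lists, and it also covered a neighbouring region. The region of rank 4, on chromosome 3 (108393389 to 108395436), averaged 53.0. Rank 5 on chromosome 12 (71211729 to 71213764) averaged 52.8, and rank 6 on chromosome 9 (49604401 to 49607400) averaged 52.1. The chromosome 9 region had nearly equal peaks in the 4 lists, at 2821 to 3036 bp, and bases shared by all 4 made up 94.0% of it. The last 4 of the 10 averaged 50.1 for chromosome 2 (32836488 to 32838855), 49.6 for chromosome 4 (132816854 to 132819294), 48.8 for chromosome 15 (101095907 to 101098568) and 48.7 for chromosome 7 (28140058 to 28143306). None of the 14 other libraries had a peak within 10 kb of the regions on chromosomes 3, 9, 2 and 4, while all 14 had one within 10 kb of that on chromosome 15.

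The regions were narrow and uniform in width. The median was 1734 bp, with an interquartile range from 1567.5 to 1989.2 bp, and 371 of the 594 (62.5%) were 1.5 to 2 kb wide. The extremes were 637 and 4035 bp, and 16 regions exceeded 3 kb. Among the peaks behind them, hs1262 peaks had a median of 1689.5 bp, hs1467 peaks 1729 bp, hs1586 peaks 1600 bp and hs1603 peaks 1528 bp. The whole lists were higher, at 2295, 2343, 2201 and 2150 bp. At 589 regions each list had a single peak. Midpoints of the 4 peaks then lay within a median of 246 bp of each other, against 207.5 bp at regions of all 18 lists. Bases covered by all 4 lists made up a median of 75.7% of the region. The 4 lists thus placed these weak peaks closely, which the rule required in part.

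The widest region, on chromosome 11 from 48619678 to 48623712, combined hs1262 and hs1467 peaks of 4285 and 4205 bp with hs1586 and hs1603 peaks of 2140 and 1605 bp. The second, 3504 bp on chromosome 16 from 4030856 to 4034359, was the single region in which no base was covered by all 4 lists. There a 975 bp hs1262 peak of percentile 3.18 met peaks of 3525, 2035 and 2895 bp in the other lists. Rank 3 in width went to chromosome 6 (114810055 to 114813529), at 3475 bp.

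A peak that extended into a neighbouring region was found in at least 1 list at 33 regions (5.56%), and at 31 of these in 1 list only. Of the 2376 values of a region in a list, 93 were above the 50th percentile and 6 above the 75th. All 6 belonged to such extended peaks. On chromosome 8 from 122743902 to 122745445, for example, the hs1586 peak was 8268 bp wide with a percentile of 88.9. The hs1262, hs1467 and hs1603 peaks there were 1242 to 1544 bp wide, with percentiles of 13.9, 2.80 and 6.79. Without the 33 regions the median average percentile was 21.9, against 22.3 with them.

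Just outside the rule on one side were 949 regions called in all 4 run 4 lists and in exactly 1 other. Their medians, 1831 bp in width and 24.7 in average percentile, compare with 1734 bp and 22.3 just inside. On the other side were 1276 regions called in 3 of the 4 lists and in no other, with medians of 1545 bp and, over the 3 lists, 16.4. Most often it was hs1603 replicate 2 that lacked the peak, in 482 cases (37.8%), against 291 for hs1586, 287 for hs1467 and 216 for hs1262, the longest list. A further 3001 regions were called in only 2 run 4 lists, most often in hs1262 with hs1586 (857) and least often in hs1586 with hs1603 (280). The regions called in 2, in 3 and in all 4 run 4 lists and in no other list came to 4871.

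From 0 to 9 other lists, the regions called in all of run 4 formed a smooth series. Their median average percentile was 22.3 with 0 other lists, 28.6 with 3, 36.0 with 6 and 47.6 with 9, and their median width was 1734, 1999, 2254 and 2504 bp. The number of regions was 594, 1328, 1652 and 2339. At 10 other lists the series broke, with 6238 regions at a median percentile of 78.7, above the 58.7 of the 3116 regions with 11. The 10497 regions of all 18 lists stood at the other end, at medians of 4019 bp and 79.5. The run-4-only regions were the narrow, low end of this series, with no step between 0 and 1 other list.

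**Figure D2:**
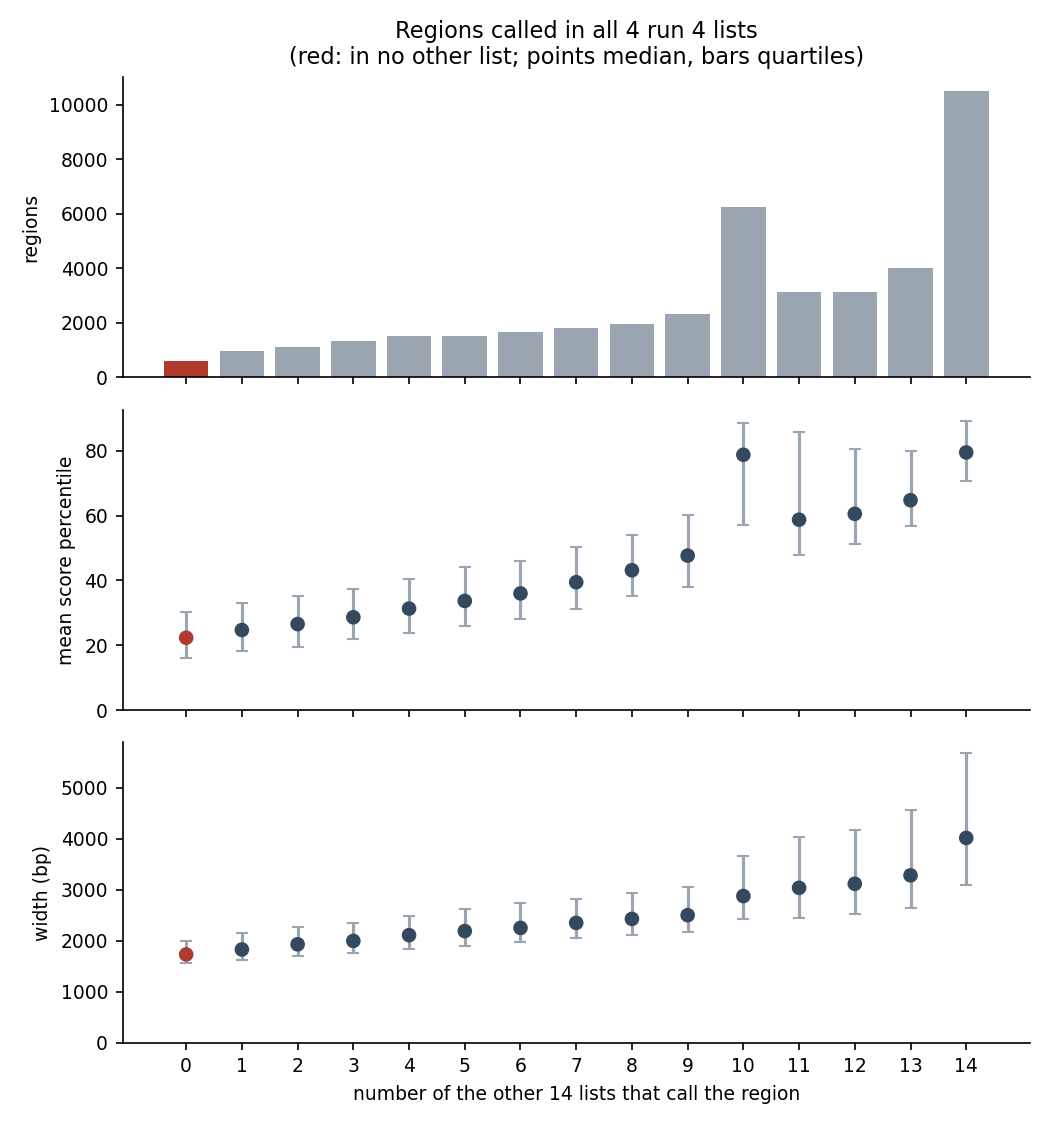
Regions called in all 4 run 4 lists, by how many of the other 14 lists also call them (x axis). Top, number of regions; middle, average score percentile in the 4 lists; bottom, width in bp; points are medians, bars run between the quartiles, and red marks regions in no other list. Width and percentile are lowest at 0 other lists, at 1734 bp and 22.3.

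Distance to wild-type forelimb H3K27ac was measured next. All 4 wild-type lists together covered 26921 intervals, or 52.8 Mb. No selected region can touch one, because a wild-type peak would have removed it. The median distance to the nearest interval was 16.0 kb, with an interquartile range from 5.80 to 47.5 kb. Within 1 kb of an interval lay 6 regions (1.01%), within 5 kb 121 (20.4%), within 10 kb 226 (38.0%) and within 100 kb 528 (88.9%). Among regions with 1 other list 2.00% were within 1 kb, so the low share is not particular to the selected regions, and the rule itself keeps regions off wild-type peaks.

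Regions called in run 4 and in few other lists lay at similar distances. The median was 18.1 kb for the 949 regions with 1 other list, and 33.5% of these were within 10 kb. It was 18.5 kb for the 1276 regions in 3 of 4 run 4 lists. For the 9901 regions with 1 to 7 other lists it was 17.1 kb, and 36.3% were within 10 kb. Regions with more callers lay nearer, and over all 41186 regions with 1 to 14 other lists, which include those that wild-type libraries call, the median was 0 kb and 71.2% were within 10 kb. Regions are not replicates of a condition, so these differences were not tested. Score differed little with distance, at a median average percentile of 21.9 for the 220 regions over 1 to 10 kb away, 22.8 for the 302 over 10 to 100 kb and 21.9 for the 63 over 100 kb to 1 Mb. The 6 within 1 kb had a median of 33.4.

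Wild-type intervals lay on both sides of 593 regions, and the gap between them ran from 43.6 to 208.4 kb between its quartiles. Position in the gap was measured from 0 at an edge to 1 in the middle. Its median was 0.490 and its interquartile range 0.225 to 0.756. Positions below 0.25 held 26.98% of the regions and positions above 0.75 held 25.6%. The regions were thus spread over the gaps with no crowding at their edges. Among regions with 1 to 7 other lists the median was 0.453, with 28.3% below 0.25 and 21.9% above 0.75. In width, the wild-type intervals nearest to selected regions had a median of 1621 bp, against 1679 bp over all such intervals. In wild-type percentile the 2 medians were 62.7 and 66.6. Broad intervals of at least 5 kb were the nearest neighbour in 1.35% of cases and made up 2.59% of all intervals. For regions with 1 other list the nearest intervals were much alike, with medians of 1605 bp and 64.1 and 1.37% of at least 5 kb.

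**Figure D3:**
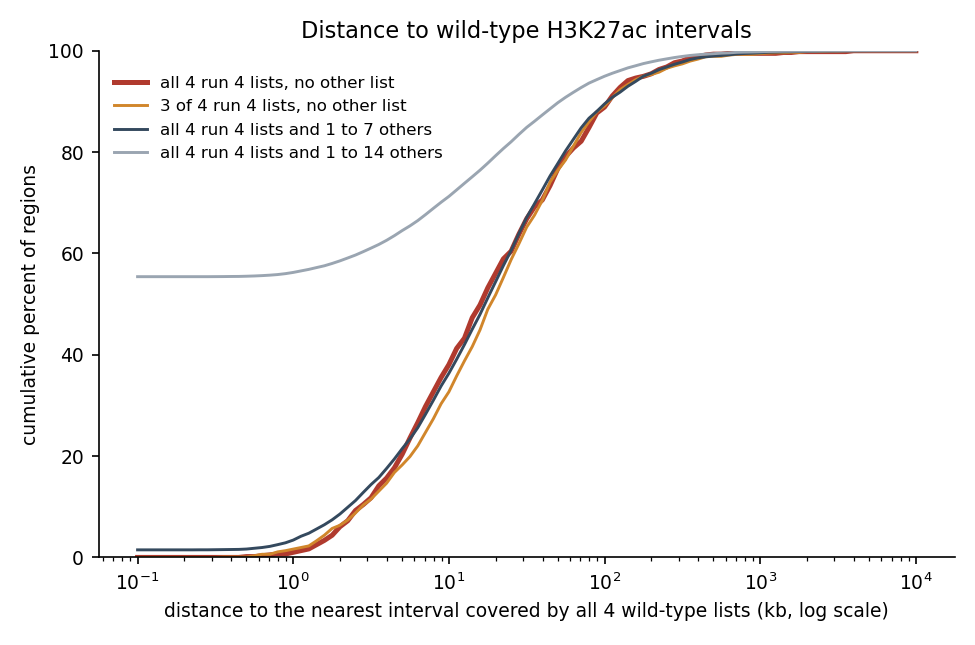
Cumulative percentage of regions (y axis) within a given distance of an interval covered by all 4 wild-type lists (x axis, kb, log scale), for the selected regions and 3 other sets. The curve of the 594 regions runs with those of regions called in 3 of 4 run 4 lists and of regions with 1 to 7 other lists, and all 3 have medians between 16.0 and 18.5 kb.

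Nearest to a wild-type interval, 495 bp away, was a region on chromosome 1 (178926542 to 178927846). The chromosome 5 region of rank 3 by average percentile followed at 590 bp, and one on chromosome 4 (132560876 to 132562693) at 702 bp. Each had an extended peak in 1 list, such as the 4429 bp hs1262 peak of percentile 80.4 on chromosome 4, where the other lists stood at 11.6, 35.2 and 17.0. Farthest, at 3904.1 kb, was a region on chromosome X (126283736 to 126285433). It was followed by one on chromosome 5 (84845533 to 84846969) at 1646.9 kb and one on chromosome 13 (88380195 to 88381949) at 1278.7 kb. The chromosome X region had a score of 141.8 in hs1262, with 105.7, 134 and 72.2 for hs1467, hs1586 and hs1603, and the nearest peak of any other library was 588.8 kb away. Bases shared by all 4 lists made up 87.1% of it. The far regions on chromosomes 5 and 13 were weaker, with average percentiles of 11.8 and 18.3.

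The other 14 libraries called peaks near many of these regions without touching them. Some other list had a peak within 1 kb of 69 regions (11.6%), within 5 kb of 289 (48.6%) and within 10 kb of 400 (67.3%). All 14 had a peak within 10 kb of 17.0% of the regions, and none did so for 194 (32.7%). The share of regions with a peak of the library within 10 kb was 49.5% ± 2.2 (SD, n = 4) in wild type, 48.4% ± 4.4 (SD, n = 4) in mm1179 and 50.7% ± 2.1 (SD, n = 2) in hs72. The ranges of these groups overlapped. Wild type and mm1179 include runs 1 and 2 and hs72 run 2 only, and differences between the groups were not tested. By run it was 43.1 to 49.3% in run 1, 47.8 to 53.9% in run 2 and 27.4 to 35.4% in run 3.

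In the lines that supplied the regions, the replicate 1 libraries had a peak within 10 kb of the smallest share of regions. Within 1 kb they did not stand apart, at 3.03 to 3.87%. Run 1 was there at 2.69 to 4.04% and run 2 at 3.37 to 4.88%. In hs1262 the share within 10 kb was 35.0%, while hs1467 reached 35.4%, hs1586 33.5% and hs1603 27.4%. All other libraries were at 43.1% or above. Around the regions with 1 other caller the same 4 libraries were also lowest, at 29.5 to 35.7%, against 38.9 to 52.1% in the rest, each over the regions that the library did not call. These 4 lists belong to run 3 and were, with mm1179 replicate 2, the shortest of the series, at 26550 to 32472 peaks. The part of list length or run in this was not tested. Regions with 1 other caller, the set just outside the rule, numbered 949. The 4 lists of run 1 made that call in 371 cases (39.1%), the 6 of run 2 in 453 (47.7%) and the 4 of run 3 in 125 (13.2%). Across the 14 lists, Spearman's rho between list length and the number of such calls was 0.704, a description only. Among single libraries, mm1179 replicate 1 supplied 122, WT replicate 1 supplied 115 and mm1179 replicate 4 supplied 107, while hs1586 replicate 1 supplied 16.

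**Figure D4:**
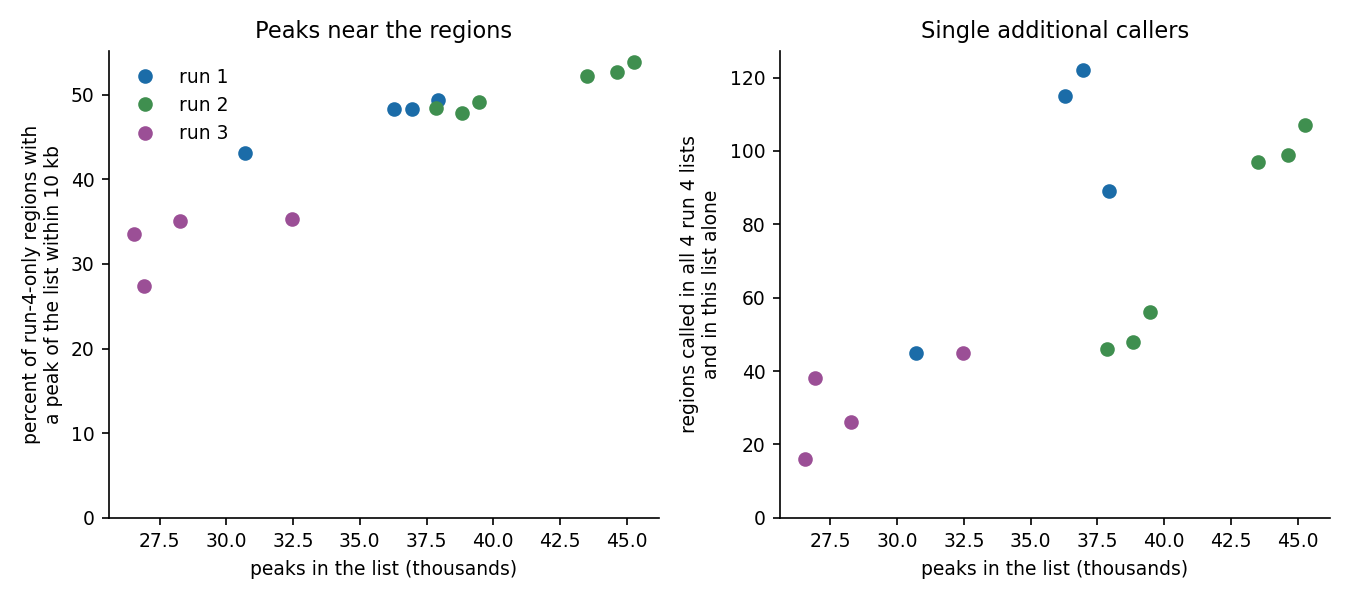
Each point is 1 of the other 14 libraries, placed by the number of peaks in its list (x axis) and coloured by run. Left, percentage of the 594 regions with a peak of the library within 10 kb; right, regions called in all 4 run 4 lists and in that library alone. The 4 run 3 libraries lie lowest on the left, at 27.4 to 35.4%.

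Selected regions were found on 20 of the 21 chromosomes in the lists, all but Y, which had 5 regions of any kind. Chromosomes 2 and 11 had the most, with 56 each (9.43%), and together 18.9%. Chromosome 2 is large and held 7.95% of all 63594 regions, while chromosome 11 held 6.60%. Per 1000 regions of any kind, the selected ones numbered 13.5 on chromosome 8, 13.4 on chromosome 11, 11.5 on chromosome 5 and 11.4 on chromosome 15, against 9.34 over the whole series. The lowest values were 4.67 on chromosome 3, 4.79 on chromosome 14 and 5.42 on chromosome 13. Chromosome X had 9 regions, or 8.29 per 1000, close to the overall value. Their median distance to wild-type intervals was 91.8 kb. Regions of any kind were also sparsest on chromosome X, at 6.76 per Mb. The distance of other chromosome X regions to wild-type intervals was not computed. Whether the 91.8 kb is particular to the selected regions is therefore not known.

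The regions with 1 other caller were spread in part alike, with 8.96% on chromosome 11, 6.64% on chromosome 8 and 2.63% on chromosome 14. Chromosomes 3 and 13 were nearer their shares in that set, with 5.06% and 4.32%, against 5.72% and 4.64% of all regions. Chromosomes 5 and 15 were not high in it, with 5.69% and 3.90%, against 6.155% and 4.00% of all regions. Across the 20 chromosomes, Spearman's rho between the share of selected regions and the share of all regions was 0.794, and with the share of regions with 1 other caller it was 0.808. Between selected regions per 1000 and regions of any kind per Mb it was 0.331. These are descriptions (n = 20), and the measures share the same region counts.

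**Figure D5:**
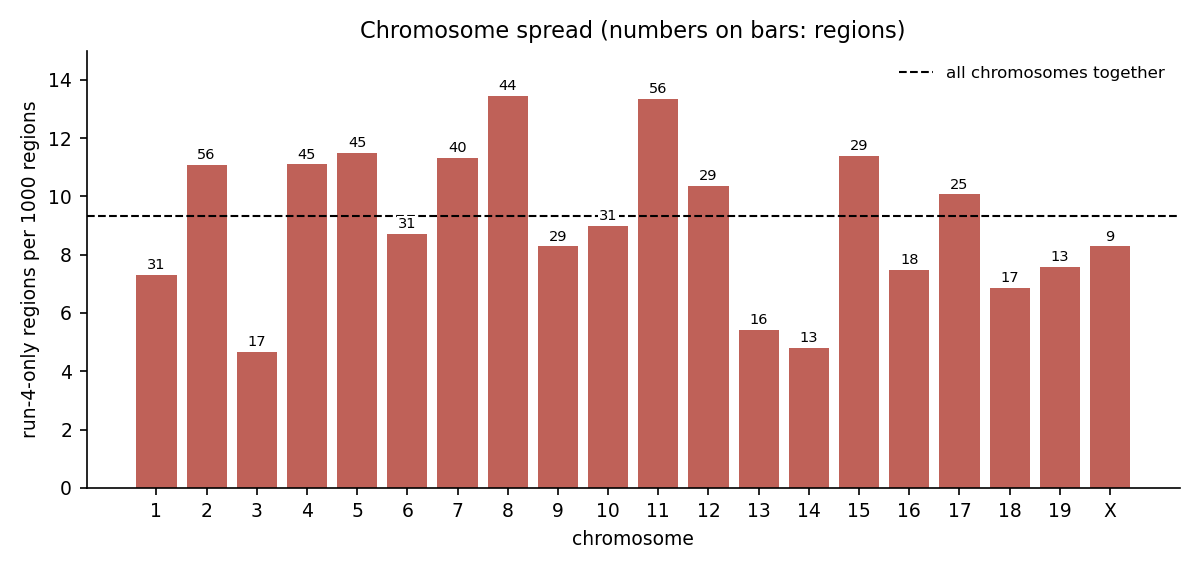
Selected regions per 1000 regions of any kind (bars, y axis) on each chromosome, with their number above the bar and the value over all chromosomes, 9.34, as a dashed line. Chromosomes 8 and 11 stand highest, at 13.5 and 13.4, and chromosomes 3, 14 and 13 lowest.

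Most selected regions stood alone. The nearest other one was a median of 745.1 kb away, and 12 of 594 (2.02%) had another within 10 kb, in 6 pairs. Between neighbours among the 949 regions with 1 other caller the median distance was 435.3 kb. The 2 sets differ in number, so the wider spacing is not shown to be particular to the selected regions. Of 456 windows of 1 Mb with a selected region, 360 held 1, 67 held 2 and 29 held 3 or more. The most were found on chromosome 8 (122000001 to 123000000) and chromosome 11 (68000001 to 69000000), with 6 each. Both were rich in regions of any kind, with 78 and 75, and 58 in each were called in all of run 4. Next came 4 windows with 4 each. The first of these in genome order, on chromosome 2 (165000001 to 166000000), held 75 regions of any kind, and the others lay in the following window on chromosome 2 and on chromosomes 7 and 8. Average percentiles in the chromosome 8 window had a median of 28.8 and in that on chromosome 11 of 21.8. On chromosome 11 the regions from 68780557 to 68782539 and from 68786283 to 68788262 formed 1 of the 6 pairs, with averages of 24.1 and 30.0.

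Places of the deleted enhancers were sought as gaps. A gap was a chain of 500 bp tiles in which peaks of all libraries except the line's own covered at least 250 bp, and the line's own libraries did not. There were 30 gaps for hs72, 3 for mm1179 and 1 each for hs1467, hs1586 and hs1603. A gap alone thus does not locate a deletion, and the longest was taken where there were several. The longest gap of mm1179 was on chromosome 13 from 15434001 to 15437000. A selected region lay 10.1 kb from it, from 15422446 to 15423889. In hs1262 its percentile was 45.8, against 6.11, 3.90 and 12.8 for hs1467, hs1586 and hs1603. The scores were 162.8, 47.3, 45.1 and 56.9, so that 1 list placed it well above the others. The hs1586 gap, on the same chromosome from 15640501 to 15642500, was 216.6 kb from this region. Both enhancers are known to act on Gli3, which encodes a transcription factor of Hedgehog signalling. The rule drops any region called in an mm1179 or wild-type library, so the lack of such a call here was fixed in advance. Of the other 14 lists, 13 had a peak within 10 kb of the region.

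Around the hs1467 gap, on chromosome 11 from 111688501 to 111691000, 1 selected region lay within 1 Mb, 826.6 kb away from 112517552 to 112519808. Its percentile in the hs1467 library was 38.8, against 21.1, 18.1 and 3.96 in hs1262, hs1586 and hs1603. Around the hs1603 gap on chromosome 6 and the longest hs72 gap on chromosome 8 there were 0 within 1 Mb, among 83 and 65 regions of any kind, and hs1262 had no gap. Around the mm1179, hs1586 and hs1467 gaps the 1 selected region was among 57, 58 and 101 regions of any kind. For mm1179 and hs1586 it was the same region. Selected regions were 0.934% of all regions, so counts of 0 or 1 in sets this small say nothing about the enhancers.

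Which regions met the rule changed with the lists' length and scores. When each list was shortened to its 26550 highest-scoring peaks, the length of the shortest, the rule found 19 regions, and 0 of them overlapped any of the 594. That step kept run 4 peaks scoring at least 191 to 232.4, and 45.2 to 48.8% of them, so weak regions drop out by construction. The 19 had a median width of 3412 bp. With a minimum score of 100 in every list the rule found 1537 regions, of which 37 (2.41%) overlapped the 594. There the run 4 lists kept 36682 to 40198 peaks and the others 12860 to 29248, so that weaker calls in the other lists no longer counted. When peaks of the other lists were widened by 5000 bp on each side, the rule found 305. Without hs1467, hs1586 or hs1603 replicate 2 the rule, then over 3 lists, found 900, 896 and 1081 regions.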

How the data were processed

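H3K27ac ChIP-seq peak lists of 18 forelimb libraries were used, and the 18 inputs were not used here. Per the submitters' processing notes, reads were handled on build mm9 with tools that include MACS 1.4.2 and Bowtie 0.12.8, besides CASAVA, cutadapt 1.1 and bcl2fastq 2.17. Settings, and any use of inputs as control, are not given in the sources used here. Positions and, per peak, the authors' score, from 40 to 3233.1, make up each deposited list. Scores were used to filter peaks or rank them within their list (mid-rank percentile). Scores as the authors gave them are also printed, as description only, and were not scaled between lists. Depth is unknown, so no counting interval applies to peaks. Runs follow tags of the deposited lists. Regions, calls, distances between nearest edges and windows were computed in Python 3.11.15 with numpy 2.4.6 and scipy 1.17.1, and drawn with matplotlib 3.10.9. Coordinates are 1-based.

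The rule for the regions, and the measures, were chosen with earlier results of these data known. No test was run, since the calls define the regions. Named regions were the 10 with the highest average percentile, the 3 widest, the 3 nearest to and farthest from wild-type intervals, and the 3 richest windows; others were named after their values were seen, as examples or for their place near a gap. To check the code, artificial peaks were planted in the real lists, far from any other peak. Of 200 regions planted in the 4 lists 200 were recovered, and 0 of those planted with another list or in 3 of 4. The rule fixes this outcome, and regions close to other peaks were not planted. The annotation at hand was of GRCm38, so genes and sequences were not assigned. Alternatives are given in the closing section.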

Additional observations from a re-analysis of the deposited data

Results flagged for a closer look

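Among the 4 wild-type libraries, replicate 4 stood apart in its median distance from the 594 regions to its own nearest peak, at 8.83 kb, against 10.5 to 10.7 kb in the other 3. Its list, at 44647 peaks, is the longest of the 4. In other groups, the run 2 lists of similar length had like values, at 8.53 kb in mm1179 replicate 4 (45267 peaks) and 8.92 kb in hs72 replicate 2 (43503 peaks). Of 10 sets of 4 values looked at, this was the single one with a sample so far from the rest, and chance marks about 1 set in 20.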

How the results depend on the processing

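No setting could reverse a direction, since the values have none. Counts were taken as alike within 1.5 times, medians within 1 SD of the 4 run 4 libraries (90.3 bp, 1.60 percentile points and 0.104 kb) and the share on the fullest chromosome within its exact 95% binomial interval (7.20 to 12.1%). The binomial interval treats regions as independent and the fullest chromosome as set beforehand, and neither holds. It served only as a wide band for calling shares alike, not as a measure of their spread. The distance SD is that of the 4 lists' own peaks at the same regions. It is therefore narrow, and most distance values fall outside it even where they differ little. Of 145 alternative values 91 were alike and 54 moved. The cause was not tested, except that leaving out or shortening lists changes the rule itself. With a minimum score of 100 there were 1537 regions, 2240 bp wide and 26.8 kb from wild-type intervals (medians). On lists of equal length there were 19, at 3412 bp, percentile 18.96 and 20.5 kb, with 15.8% on each of chromosomes 4 and 11. In both of these settings peaks were ranked within the reduced lists, and wild-type intervals were formed anew from them. Their percentiles and distances are therefore not on the scale of the main values, and 18.96 does not mean weaker regions. With at least 50% of a region covered (872 regions) the medians were 1949.5 bp, percentile 28.2 and 14.4 kb. With regions of at least 3 lists they were 1547.5 bp and 15.48 kb, and of at least 4 lists 1259 bp, percentile 24.4 and 13.8 kb. Widening other peaks by 500 bp gave 17.0 kb, and by 5000 bp 305 regions and 28.4 kb. The median distance was 17.0 kb without run 3 (832 regions), 15.8 kb on autosomes, 6.69 kb to intervals of at least 1 wild-type list, 17.7 kb to those of at least 1000 bp, 17.4 kb between midpoints and 16.7 kb without regions that share a peak, the last chosen after seeing the data. The union of the defining peaks was 2036 bp wide. With 1 library left out, the count ranged from 612 to 1081, the width from 1579 to 1752.5 bp, the percentile from 19.5 to 23.4, the distance from 14.8 to 17.3 kb and the share from 9.07 to 10.1%. Where a wild-type library was left out, distances were to intervals covered by all of the remaining wild-type lists. No paired analysis was possible because the results come from no test, and the calls of run 3 and run 4 that a pairing by line would compare are those that chose the regions.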
